A study of Mus musculus with 10 samples.

Results

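Acyl-CoA thioesterases split a fatty acyl-CoA into a free fatty acid and coenzyme A (CoA). A list of 10 genes of this kind, *Acot1*, *Acot2*, *Acot3*, *Acot4*, *Acot7*, *Acot8*, *Acot9*, *Acot11*, *Acot13* and *Them4*, was picked by name from the 27267 genes listed in a bulk RNA-seq experiment on mouse brown adipose tissue. The rule uses names and no measured values, but the list was drawn up with results of these data known. All 10 members were found in the listing. Their enzymes work in different places: *Acot1*, *Acot7* and *Acot11* were treated as cytosolic, *Acot2*, *Acot9*, *Acot13* and *Them4* as mitochondrial, and *Acot3*, *Acot4* and *Acot8* as peroxisomal.

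A fatty acid has to be joined to CoA by an acyl-CoA synthetase before it can be burned, stored or lengthened, and a thioesterase undoes that step. The balance between the enzymes sets how much acyl-CoA and free CoA each compartment holds. Brown fat burns fatty acids in its mitochondria to make heat, and *Acot11* was first described there as the brown fat-inducible thioesterase, a gene switched on by cold. Type I enzymes (*Acot1* to *Acot4*) share an alpha/beta-hydrolase fold, and type II enzymes (the other members) a hotdog fold.

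The tissue was interscapular brown fat of C57BL/6 males of 4 weeks on a chow diet, from 5 wild-type mice and 5 mice labelled *Mgp*-KO. *Mgp* encodes matrix Gla protein, an inhibitor of bone morphogenetic proteins, and the knockout is global, so the gene is lost in all tissues. Disease of the blood vessels shortens the life of these animals. Each library was made from total RNA of whole tissue, so that in every result below fewer cells of a type and less RNA per cell cannot be told apart.

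The library labels were checked first. *Mgp* was at 466 to 1146 normalized counts (reads divided by the size factor of the library) in the wild-type libraries and at 0 to 0.821 in *Mgp*-KO 1 to 3, but reached 500 and 331 in *Mgp*-KO 4 and 5, 2 libraries that go against their label. *Xist*, expressed from the inactive X chromosome of females, was at 5094 in wild type 2, labelled male, and at 0.754 to 44.0 in the other libraries. Replicates 1 to 3 of both groups also stood apart from replicates 4 and 5: they held 19616366 to 22252260 against 9253793 to 13281873 reads on genes, and 0.771 to 1.72% against 6.50 to 16.7% of reads on mitochondrial ribosomal RNA. For this reason each comparison was repeated inside both sets. The brown adipocyte genes *Ucp1* and *Cidea* were high in each of the 10 libraries, and the adipocyte genes *Adipoq* and *Fabp4* likewise. Levels were not even, however: *Adipoq* was lowest at 4675 in *Mgp*-KO 4. *Plin1* was at 9008.5 to 20626.7 in wild-type tissue, but at 1929 and 3048 in *Mgp*-KO 2 and 4. Of the 6 adipocyte markers, 5 had a negative log2 fold change and 1 a positive one (median -0.31). Their sums overlapped (165814 to 292366 against 149735 to 240316). Summed over 10 brown adipocyte markers, the normalized counts were 91730 to 186998 in the wild-type libraries and 38940 to 89229 in those labelled *Mgp*-KO, with no overlap. That separation rests on *Ucp1*, the 1 gene of the 10 whose groups did not overlap: without it the sums were 50408 to 86385 and 36739 to 73588. Of the 10 markers, 9 had a negative log2 fold change and 1 a positive one. *Dio2* had group means of 3244 and 453, and *Elovl3* of 688 and 39.0. *Cox8b* had group means of 14933 and 14883, and *Zic1* of 96.5 and 155. In limma, the test used below, a model with a term for the set called *Ucp1*, *Dio2* and *Elovl3* lower, beside 2.36% of all genes. The sum of 8 skeletal muscle genes was 30394 and 32829 in *Mgp*-KO 2 and 5 and between 35.3 and 5841 in the other 8 libraries. Sums of the endothelial markers overlapped (19095 to 30010 against 21078 to 52576), as did those of the myeloid (1203 to 1896 against 1357 to 1964) and progenitor markers (1508 to 2783 against 1274 to 4563). Of the 8 endothelial markers, 7 had a positive log2 fold change, with a median of 0.38. It was 0.16 within replicates 1 to 3 and 0.73 within 4 and 5. None of the 8 passed in limma, with or without the set term, and neither did any of the 6 adipocyte markers. A positive value was found for 6 of 8 myeloid and 2 of 5 progenitor markers. The neuronal genes *Snap25* and *Syt1* did not exceed 3.24 normalized counts in any library.

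The 6 type I genes, 4 members with *Acot5* and *Acot6*, lie side by side on chromosome 12 within 123.5 kb (GRCm38, 83987861 to 84111349), all on the plus strand, in the order *Acot2*, *Acot1*, *Acot4*, *Acot3*, *Acot5* and *Acot6*. The type II members are scattered: *Acot7* (152178134 to 152271855, plus strand) and *Acot11* (106744555 to 106804998, minus strand) lie on chromosome 4, *Acot8* on chromosome 2 (164792765 to 164804882), *Them4* on chromosome 3 (94310089 to 94332540), *Acot13* on chromosome 13 (24817948 to 24831540) and *Acot9* on the X chromosome (155262443 to 155297654). The coding sequences of *Acot1* and *Acot2* were identical at 95.6% of 1236 aligned bases, the closest pair among the 6 neighbours, and shared an unbroken run of 273 bases. Its first 50 bases, the length of 1 read, show why a read from there cannot be assigned to either gene, with the sequence taken from the annotated GRCm38 transcripts.

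*Acot1* and *Acot2*, shared coding stretch: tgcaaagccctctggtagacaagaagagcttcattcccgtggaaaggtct

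In the annotated transcripts, 33.65% of the possible 50-base reads of *Acot1* and 27.71% of those of *Acot2* also occurred in another gene, most of them in each other, and so did 21.7% of *Acot3*, 14.43% of *Acot4* (most of these in the antisense gene *4732463B04Rik*) and 20.2% of *Acot9*, all of these in its copy *Acot10*. The 24.43% of *Acot11* and 17.68% of *Acot8* that were shared came from genes that overlap them on the opposite strand, *Fam151a* and *Snx21*. The strand setting of the counting was not found in the methods, so these values carry an uncertainty that the *Acot7*, *Acot13* and *Them4* values, with 0 shared reads, do not.

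The start regions of *Acot1* and *Acot2*, in contrast, can be told apart. Regions from 250 bases before to 50 bases after the start site were taken from RefSeq (GRCm38.p6), where 9 of the 10 members had an entry, and are printed for the 2 genes with the most similar coding sequence and for *Acot11* and *Acot8*, on whose values most of the results turn. Capitals mark matches on either strand to AGGTCA (the half-site of nuclear receptors such as the PPARs), the E-box CACGTG, the CCAAT box, the GC box with the letters GGGCGG and the TATAAA box. The positions run 5′ to 3′ along the strand of the gene.

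*Acot11*, first start (chr4:106804958-106805257, minus strand): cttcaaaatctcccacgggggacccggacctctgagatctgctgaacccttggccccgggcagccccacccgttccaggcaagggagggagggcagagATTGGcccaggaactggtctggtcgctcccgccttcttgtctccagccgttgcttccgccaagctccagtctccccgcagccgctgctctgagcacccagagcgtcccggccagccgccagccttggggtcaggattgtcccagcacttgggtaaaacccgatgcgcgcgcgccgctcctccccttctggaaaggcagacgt
*Acot11*, second start (chr4:106799782-106800081, minus strand): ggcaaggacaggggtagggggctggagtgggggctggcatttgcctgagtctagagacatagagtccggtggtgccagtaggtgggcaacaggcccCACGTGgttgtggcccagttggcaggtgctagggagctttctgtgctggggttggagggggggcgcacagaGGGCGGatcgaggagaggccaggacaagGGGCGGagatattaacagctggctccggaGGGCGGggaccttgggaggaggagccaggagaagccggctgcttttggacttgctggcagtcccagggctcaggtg
*Acot8* (chr2:164804832-164805131, minus strand): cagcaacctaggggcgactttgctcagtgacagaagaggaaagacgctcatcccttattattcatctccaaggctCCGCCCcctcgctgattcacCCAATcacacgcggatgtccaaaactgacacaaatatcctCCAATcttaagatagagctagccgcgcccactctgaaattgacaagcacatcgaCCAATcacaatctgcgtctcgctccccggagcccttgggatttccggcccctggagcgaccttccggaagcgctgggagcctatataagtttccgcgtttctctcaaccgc
*Acot1* (chr12:84009252-84009551, plus strand): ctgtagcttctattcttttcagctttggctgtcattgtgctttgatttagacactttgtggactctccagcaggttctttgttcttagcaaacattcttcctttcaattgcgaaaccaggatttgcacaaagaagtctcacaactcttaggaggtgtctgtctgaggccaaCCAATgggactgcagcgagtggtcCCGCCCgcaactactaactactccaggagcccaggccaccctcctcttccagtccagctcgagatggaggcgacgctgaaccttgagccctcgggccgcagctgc
*Acot2* (chr12:83987611-83987910, plus strand): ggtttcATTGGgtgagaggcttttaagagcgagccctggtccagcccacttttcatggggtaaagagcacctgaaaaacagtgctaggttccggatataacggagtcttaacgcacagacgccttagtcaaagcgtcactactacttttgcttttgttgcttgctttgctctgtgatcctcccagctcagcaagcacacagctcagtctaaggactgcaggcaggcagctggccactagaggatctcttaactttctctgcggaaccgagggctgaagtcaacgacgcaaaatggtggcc

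The 2 *Acot11* windows hold different letters. The first has 1 CCAAT match and no other, and the second has 1 CACGTG match at position -154 and 3 GGGCGG matches but no CCAAT. *Acot8* has 3 CCAAT matches and 1 GGGCGG match, *Acot1* has 1 of each, and *Acot2* has 1 CCAAT match. Among all 32851 RefSeq windows of the same length, the share that holds CCAAT is 37.4%, and it is 35.7% for the GC box, 16.3% for the AGGTCA half-site, 13.6% for the TATAAA box and 7.15% for the E-box. AGGTCA is in none of the 5 windows printed. Among the windows not printed, that of *Acot4* has 1 match, at position -13, and each window of *Acot3* has 1. An AGGTCA repeat spaced by 1 base, the arrangement that PPARs bind, is in 0.0396% of all windows and in no window of a member. These matches are descriptions of letters in a window.

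To compare the members with each other, the normalized count was divided by the length of all annotated exons of the gene in kilobases. On this scale, *Acot13*, a small type II enzyme of mitochondria and cytosol that is also known as Them2, was the most abundant member, at 2667 ± 489 normalized counts per kb in wild-type tissue (SD, n = 5). *Acot11* followed at 935 ± 428, *Acot2*, the long-chain thioesterase of the mitochondrial matrix, at 377 ± 75.6, and *Acot9*, another matrix enzyme, at 256 ± 57.9. *Acot7*, a cytosolic enzyme best known from brain, stood at 157 ± 26.3.

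The other 5 members were lower. The peroxisomal *Acot8*, which accepts a broad range of acyl-CoAs, was at 82.2 ± 14.3 per kb, *Them4* at 46.4 ± 16.8, *Acot4*, the peroxisomal succinyl-CoA thioesterase of the mouse, at 40.3 ± 22.6, *Acot1*, the cytosolic long-chain enzyme, at 35.1 ± 25.1 and *Acot3*, a peroxisomal long-chain enzyme, at 1.80 ± 1.33. Neighbours in this order were separated in all libraries only between *Acot13* and *Acot11*, between *Acot7* and *Acot8*, and between *Acot1* and *Acot3*. The ranges of every other neighbouring pair overlapped.

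In the libraries labelled *Mgp*-KO, *Acot11* moved from the second to the fourth place of the order, at 199 ± 50.1 per kb, behind *Acot2* (511 ± 135) and *Acot9* (234 ± 39.6). *Acot13* stayed first at 3460 ± 1357 per kb, and the order from *Acot7* (125 ± 27.8) down to *Acot3* (0.582 ± 0.616) was the same as in the wild type. *Acot13* and *Acot2*, *Acot2* and *Acot9*, *Acot7* and *Acot8*, and *Acot1* and *Acot3* did not overlap there.

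**Figure D1:**
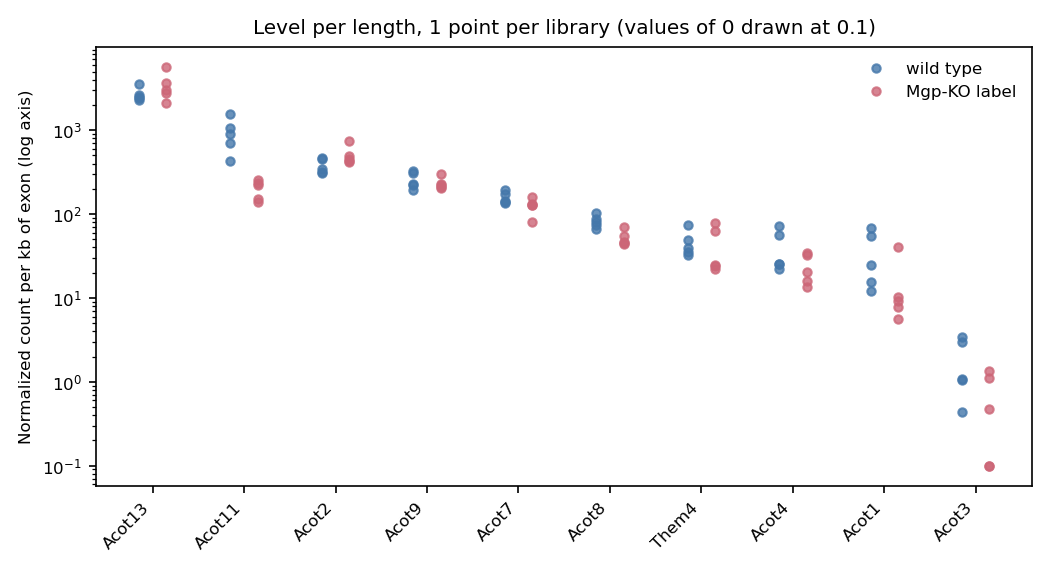
Normalized count per kilobase of exon (log axis) of the 10 thioesterase genes, ordered by the wild-type mean, with 1 point per library. *Acot13* is highest in both groups, and *Acot11* drops from a wild-type mean of 935 to 199 in the libraries labelled *Mgp*-KO, below *Acot2* and *Acot9*.

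The first comparison asked which thioesterases differ between the genotypes. *Acot11* was lower in the libraries labelled *Mgp*-KO and was the 1 member that passed the test (limma on log2(normalized count + 1), Benjamini-Hochberg over all 13714 genes with a mean of at least 10, adjusted p under 0.05). Of the 9 members tested, 7 had a negative and 2 a positive log2 fold change, with a median of -0.34 beside 0.03 for all tested genes. The background is low: 9 of 13714 genes (0.0656%) passed in this comparison, and 1421 (10.4%) had an unadjusted p under 0.05, as 3 of the 9 members did. *Acot3*, with a mean of 4.09 normalized counts, was below the minimum and was left out of this test. Fold changes on this scale understate the changes of low genes.

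*Acot11* stood at 4287, 5461, 6471, 2590 and 9517 normalized counts in wild type 1 to 5, and at 1332, 849, 1526, 919 and 1407 in *Mgp*-KO 1 to 5. The groups did not overlap: the lowest wild-type library, wild type 4, was still above the highest one labelled *Mgp*-KO. This was so for 1 of the 9 tested members and for 480 of all tested genes (3.50%). The group means were 5665 ± 2593 and 1207 ± 303 (SD, n = 5 each), so that 21.3% of the wild-type mean was left. The log2 fold change was -2.14 ± 0.32 (standard error, limma adjusted p = 0.0471). The two-sided exact permutation test of log2(normalized count + 1) gave p = 0.00794, the smallest that 5 against 5 allows.

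The adjusted p of *Acot11* lay close to the threshold. With 1 library left out it was 0.0145 without wild type 4 and 0.0312 without *Mgp*-KO 4, and 0.0702 to 0.180 without each of the other 8. The log2 fold changes of all these fits were -2.39 to -1.92. Without wild type 2, 3 or 5, or *Mgp*-KO 1 or 3, no gene of the 13714 tested passed. Without both *Mgp*-KO 2 and 5, the libraries with the most muscle RNA, the log2 fold change was -2.07 (limma adjusted p = 0.151), and without *Mgp*-KO 4 and 5, the libraries with *Mgp* reads, it was -2.11 (limma adjusted p = 0.0260). No gene passed without *Mgp*-KO 2 and 5, and 267 passed without *Mgp*-KO 4 and 5. *Ucp1* was lower as well, without overlap between the groups. The sum of the other 9 brown adipocyte markers overlapped, though *Dio2* and *Elovl3* among them were lower with the set term in limma. The part of these genes in the *Acot11* difference was not tested. *Fam151a*, which overlaps *Acot11*, reached at most 35.1 normalized counts, far below *Acot11* in every library. Its group means were 24.2 in the wild type and 4.81 under the *Mgp*-KO label. The part of shared reads in the *Acot11* difference was not tested.

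The *Acot11* difference was of similar size in both sets of replicates. A model with a term for the set called *Acot11* (limma adjusted p = 0.0127) and no other member, in a background of 324 genes (2.36%). Within replicates 1 to 3, its log2 fold change was -2.15 ± 0.24 (limma adjusted p = 0.00845), again as the 1 member called, with 505 genes (3.68%) past the threshold. Within replicates 4 and 5 it was -2.13 ± 0.62 (limma adjusted p = 0.675). No gene out of 13711 (0.00%) passed there, while 872 genes and 3 members had an unadjusted p under 0.05 in limma. The test of the difference between the sets gave 0.03 ± 0.68 for *Acot11* (limma adjusted p = 0.990).

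**Figure D2:**
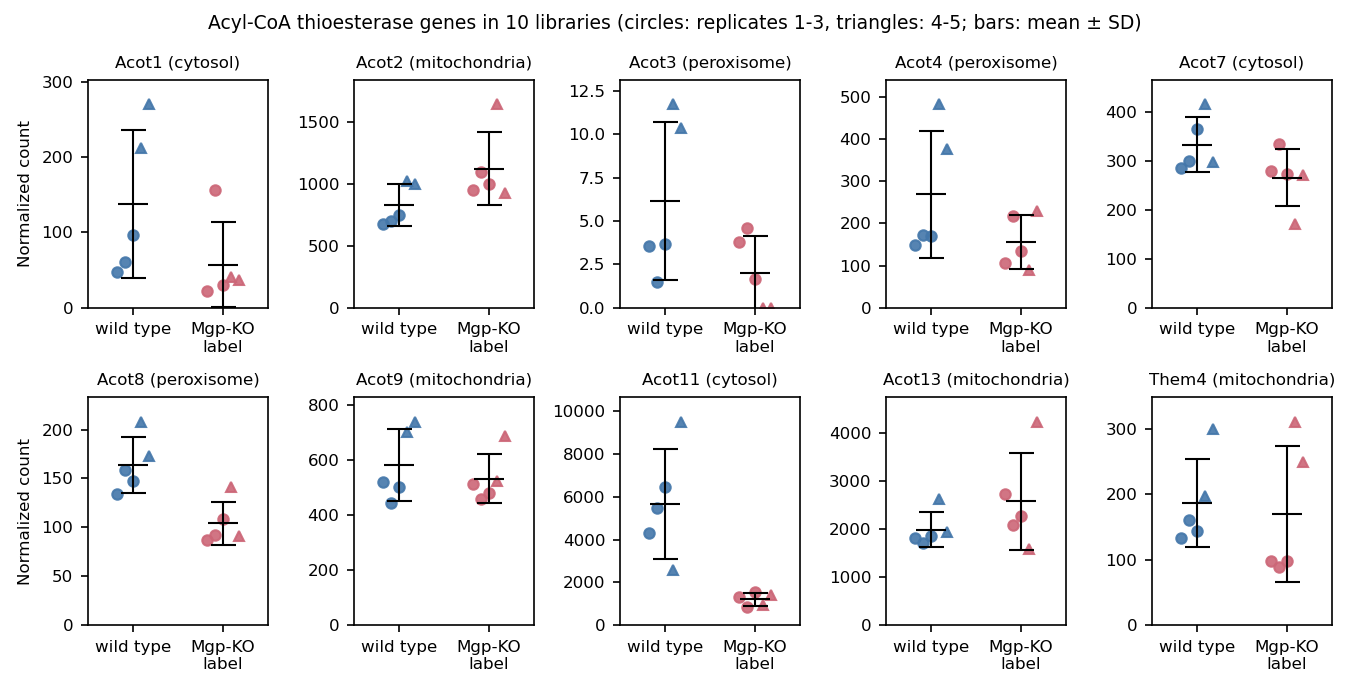
Normalized counts (linear axes from 0) of the 10 thioesterase genes in wild-type libraries and in libraries labelled *Mgp*-KO, with circles for replicates 1 to 3, triangles for replicates 4 and 5, and bars for the mean and SD of 5 libraries. The points of *Acot11* do not overlap between the groups, while those of the other genes do.

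The other cytosolic members were lower on average but overlapped between the groups. *Acot1* was at 47.2, 61.4, 97.0, 213 and 270 normalized counts in wild type 1 to 5, and in *Mgp*-KO 1 to 5 at 21.9, 157, 30.4, 40.5 and 36.3. The library *Mgp*-KO 2 stood far above the other 4 of its group, which were all below every wild-type library. On the log2 scale the difference was -1.32 ± 0.59 (limma adjusted p = 0.464).

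The *Acot1* values of the 2 sets lay far apart, but the test of that difference was not passed after adjustment. Within replicates 1 to 3 it was -0.46 ± 0.68, and within replicates 4 and 5, where wild type 4 and 5 held the highest counts, it was -2.61 ± 0.40 (limma unadjusted p = 0.000332, adjusted p = 0.675). The difference between the sets was -2.15 ± 0.96 (limma unadjusted p = 0.0488, adjusted p = 0.482). Without *Mgp*-KO 2 and 5 together, the log2 fold change was -1.84 (limma adjusted p = 0.439). *Mgp*-KO 2 is 1 of the 2 libraries with high muscle genes, but *Mgp*-KO 5, with 32829 counts of muscle genes, had only 36.3 counts of *Acot1*, and the part of muscle RNA in the *Acot1* counts was not tested.

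*Acot7* was at 287, 301, 367, 416 and 298 normalized counts in wild type 1 to 5, and in *Mgp*-KO 1 to 5 at 280, 335, 273, 172 and 272. The groups overlapped, and *Mgp*-KO 4 was the lowest library. Its log2 fold change was -0.34 ± 0.21 (limma adjusted p = 0.605), and it was -0.19 without *Mgp*-KO 4 and -0.16 without *Mgp*-KO 4 and 5. It was -0.10 in replicates 1 to 3 alone, and -0.70 in replicates 4 and 5 alone.

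Among the mitochondrial members, *Acot2* and *Acot13* had higher means in the libraries labelled *Mgp*-KO and *Acot9* and *Them4* lower ones, and none passed the test over all 10 libraries. *Acot2* was at 673, 699, 750, 1017 and 995 normalized counts in wild type 1 to 5, and in *Mgp*-KO 1 to 5 at 950, 1095, 1000, 1638 and 925. In replicates 1 to 3 every library labelled *Mgp*-KO was above every wild-type library, whereas in replicates 4 and 5 *Mgp*-KO 5 was below both wild-type libraries. The log2 fold change was 0.43 ± 0.21 over all libraries (limma adjusted p = 0.516), 0.28 without *Mgp*-KO 4, and 0.52 ± 0.11 within replicates 1 to 3 (limma adjusted p = 0.0525).

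*Acot13* was at 1818, 1707, 1842, 2619 and 1936 normalized counts in wild type 1 to 5, and in *Mgp*-KO 1 to 5 at 2717, 2072, 2264, 1590 and 4230. The libraries *Mgp*-KO 4 and 5 were the lowest and the highest of all 10. Its log2 fold change was 0.31 ± 0.25 (limma adjusted p = 0.716), but 0.11 without *Mgp*-KO 5 and 0.13 without *Mgp*-KO 2 and 5, the libraries with high muscle genes. The groups did not overlap within replicates 1 to 3, where it was 0.39 ± 0.13 (limma adjusted p = 0.145). *Pctp*, the phosphatidylcholine transfer protein that binds the *Acot13* enzyme, was at 255 ± 42.2 and 256 ± 112 (SD, n = 5 each), with a log2 fold change of -0.09 (limma adjusted p = 0.949).

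**Figure D3:**
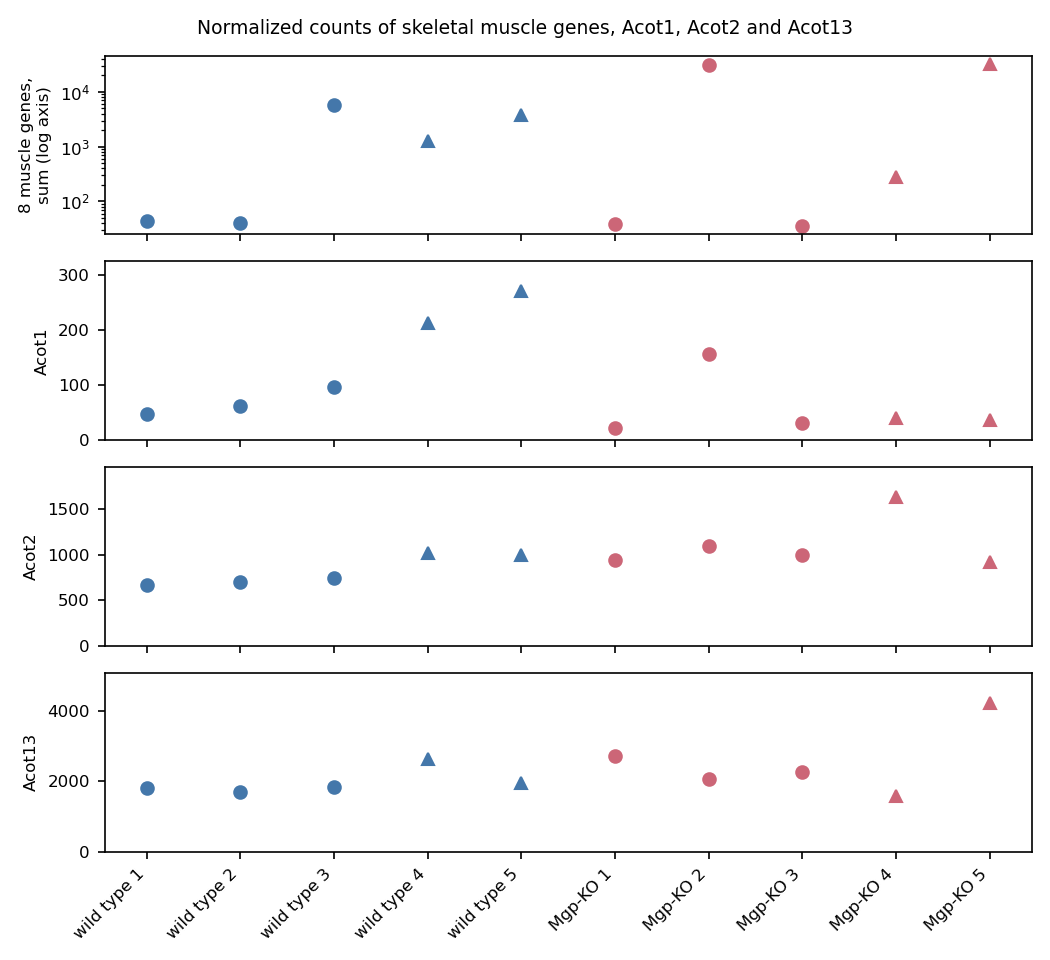
Normalized counts in each library of 8 skeletal muscle genes (sum, log axis) and of *Acot1*, *Acot2* and *Acot13* (linear axes from 0), with circles for replicates 1 to 3 and triangles for 4 and 5. The muscle sum is 30394 and 32829 in *Mgp*-KO 2 and 5. *Acot1* is high at 157 in *Mgp*-KO 2 but 36.3 in *Mgp*-KO 5, and *Acot13* is highest, at 4230, in *Mgp*-KO 5.

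*Acot9* lies on the X chromosome. It was at 521, 443, 502, 704 and 741 normalized counts in wild type 1 to 5, and in *Mgp*-KO 1 to 5 at 512, 461, 480, 524 and 687. Wild type 2, the library with *Xist* reads, was the lowest of all 10. Its fold change on the log2 scale was -0.11 ± 0.20 (limma adjusted p = 0.885), -0.20 without wild type 2 (limma adjusted p = 0.840) and -0.02 without wild type 5 (limma adjusted p = 0.985).

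*Them4*, also described as a modulator of the kinase Akt, was at 132, 160, 143, 198 and 299 normalized counts in wild type 1 to 5, and in *Mgp*-KO 1 to 5 at 98.0, 88.0, 98.5, 311 and 250. Its log2 fold change over all libraries was -0.29 ± 0.39 (limma adjusted p = 0.843), and -0.56 to -0.10 with 1 library left out. In replicates 1 to 3 all 3 libraries labelled *Mgp*-KO were below the wild type, at a log2 fold change of -0.61 ± 0.15 (limma adjusted p = 0.0753). In replicates 4 and 5 the groups overlapped, at 0.19 ± 0.37 (limma adjusted p = 0.872), which made *Them4* the 1 tested member with opposite signs in the sets. The difference between the sets was 0.80 ± 0.32 (limma unadjusted p = 0.0323, adjusted p = 0.469).

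The peroxisomal *Acot8* had the second smallest p of the members. It was at 134, 159, 147, 208 and 173 normalized counts in wild type 1 to 5, and in *Mgp*-KO 1 to 5 at 86.7, 92.6, 108, 141 and 91.4. In every numbered pair the library labelled *Mgp*-KO was the lower one, but the numbers were not shown to pair the mice. The groups overlapped only because *Mgp*-KO 4 was above wild type 1. The means were 164 ± 28.5 and 104 ± 22.2 (SD, n = 5 each). The exact permutation test of log2(normalized count + 1), two-sided, gave p = 0.0159.

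On the log2 scale *Acot8* differed by -0.66 ± 0.20 (limma unadjusted p = 0.00676, adjusted p = 0.245), with similar values of -0.61 and -0.74 within replicates 1 to 3 and 4 to 5. With the set term the adjusted p was 0.0612 in limma and 0.00785 in DESeq2 on the recovered reads. The DESeq2 model with the set term called *Acot8* and *Acot11* among the members and 1135 genes (4.18%) in all. *Snx21*, which overlaps *Acot8* on the other strand and has more reads, had group means of 689 in the wild type and 1053 under the *Mgp*-KO label.

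*Acot4* was at 148, 171, 169, 482 and 376 normalized counts in wild type 1 to 5, and in *Mgp*-KO 1 to 5 at 107, 216, 135, 89.0 and 229. The 2 high values belonged to wild type 4 and 5, and the groups overlapped within the first set of replicates but not within the second. The log2 fold change was -0.72 ± 0.39 (limma adjusted p = 0.565) and -0.47 without wild type 4, with -0.15 ± 0.25 in replicates 1 to 3 alone and -1.57 ± 0.49 in replicates 4 and 5 alone. The difference between the sets was -1.42 ± 0.55 (limma unadjusted p = 0.0284, adjusted p = 0.466).

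*Acot3* was at 3.58, 1.50, 3.68, 11.7 and 10.4 normalized counts in wild type 1 to 5, and in *Mgp*-KO 1 to 5 at 3.77, 4.59, 1.64, 0 and 0. These are 0 to 8 reads per library, and a count of 0 allows up to 3 reads, or 4.86 and 3.52 normalized counts in *Mgp*-KO 4 and 5, for counting error only. Without the filter on low values, *Acot3* had a log2 fold change of -1.36 (limma adjusted p = 0.703), and DESeq2, run without that minimum, gave -1.43 (DESeq2 adjusted p = 0.533).

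**Figure D4:**
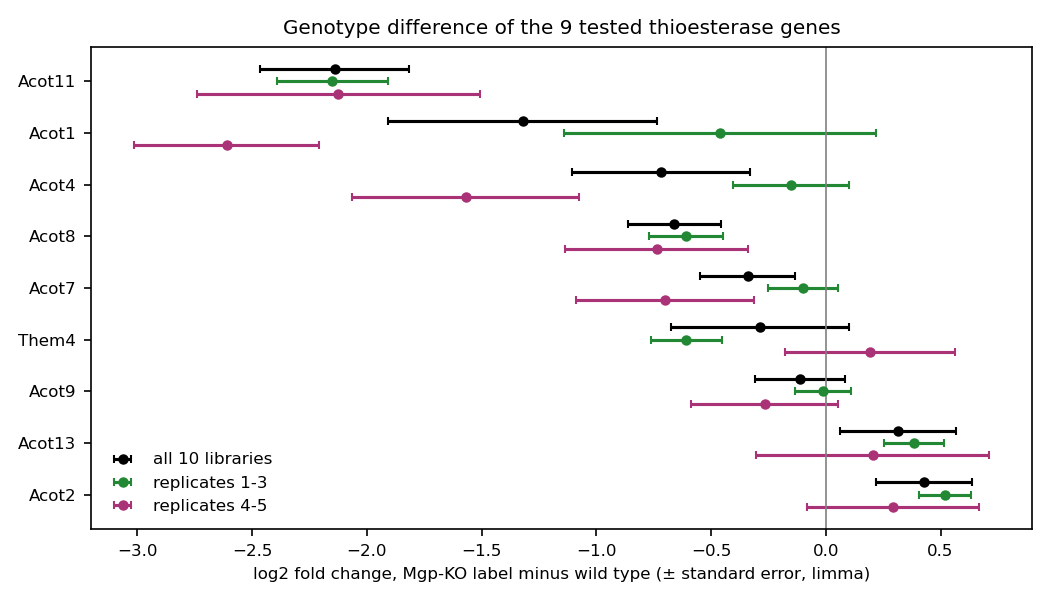
The log2 fold change (libraries labelled *Mgp*-KO minus wild type, with its standard error from limma) of the 9 tested thioesterase genes over all 10 libraries and in each set of replicates alone. *Acot11* lies near -2.14 in all 3, *Acot1* is at -2.61 and *Acot4* at -1.57 within replicates 4 and 5, against -0.46 and -0.15 within 1 to 3, and *Acot2* and *Acot13* are above 0.

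Over the list, the sign was negative in both sets for 6 of the 9 tested members, positive in both for *Acot2* and *Acot13*, and opposite for *Them4*. The median log2 fold change of the members was -0.15 within replicates 1 to 3 (0.02 for all genes) and -0.70 within replicates 4 and 5 (0.02 for all genes). The groups did not overlap for 5 of the 9 within replicates 1 to 3 (*Acot2*, *Acot8*, *Acot11*, *Acot13* and *Them4*, background 30.6%), and for 6 of the 9 within replicates 4 and 5 (*Acot1*, *Acot4*, *Acot7*, *Acot8*, *Acot9* and *Acot11*, background 41.6%). Whether these shares differ from the background was not tested. No member passed the test of a difference between the sets in limma or edgeR, where 1 gene passed with each tool. An unadjusted p under 0.05 was reached by 3 members with each tool, beside 1419 of 13714 genes in limma (10.3%) and 1377 in edgeR.

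Some members also moved with the set itself. With the genotype in the model, *Them4* was higher in replicates 4 and 5 than in 1 to 3 by 1.15 ± 0.20 on the log2 scale (limma adjusted p = 0.00132), and *Acot9* by 0.44 ± 0.13 (limma adjusted p = 0.0211). These 2 of 9 members stand beside 5243 of 13714 genes (38.2%). *Acot11* differed between the sets by -0.09 ± 0.32 (limma adjusted p = 0.850).

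The second comparison set the compartments against each other, using the sum of the levels per kb of their members. These sums are descriptions without a test, since their members were chosen with results known. Mitochondrial genes made up most of the sum in every library. Wild type 1 to 5 had mitochondrial shares of 76.1, 71.0, 69.2, 83.5 and 64.2%, and *Mgp*-KO 1 to 5 had 91.2, 89.3, 89.0, 90.7 and 93.5%.

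For the cytosol, wild type 1 to 5 had 21.6, 26.4, 28.5, 13.04 and 33.1%, and *Mgp*-KO 1 to 5 had 7.52, 8.61, 9.25, 6.91 and 5.34%. The groups did not overlap for either of these shares. Peroxisomal genes held 2.67 ± 0.488% in the wild type and 1.73 ± 0.516% in the libraries labelled *Mgp*-KO (SD, n = 5 each), with overlapping ranges of 2.25 to 3.46% and 1.16 to 2.38%.

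Behind these shares stood a lower cytosolic sum and a total of similar size. The cytosolic sum was 1128 ± 426 normalized counts per kb in the wild type and 339 ± 56.9 in the libraries labelled *Mgp*-KO. The mitochondrial sum was 3346 ± 600 and 4247 ± 1311, the peroxisomal sum 124 ± 37.6 and 75.9 ± 9.16, and the total 4598 ± 663 and 4662 ± 1339 (SD, n = 5 each). The ratio of the mitochondrial to the cytosolic sum was 1.94 to 6.41 in the wild type and 9.61 to 17.5 in the libraries labelled *Mgp*-KO.

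A single gene carried each of the larger sums. *Acot11* made up 80.7 ± 10.1% of the cytosolic sum in the wild type and 58.6 ± 9.67% under the *Mgp*-KO label. *Acot7* made up 15.9 ± 7.83 and 36.9 ± 5.66%, without a higher mean level of its own in the latter. *Acot13* made up 79.7 ± 2.48 and 80.0 ± 7.94% of the mitochondrial sum. The compartment of *Acot13* therefore decides the size of the shares: counted as cytosolic, the cytosolic share was 82.7% in the wild type and 80.2% under the *Mgp*-KO label. The lower cytosolic sum under the *Mgp*-KO label is mostly that of *Acot11*, at 935 and 199 per kb. Its share is thus largely the *Acot11* difference in another form. No compartment other than that of *Acot13* was varied.

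**Figure D5:**
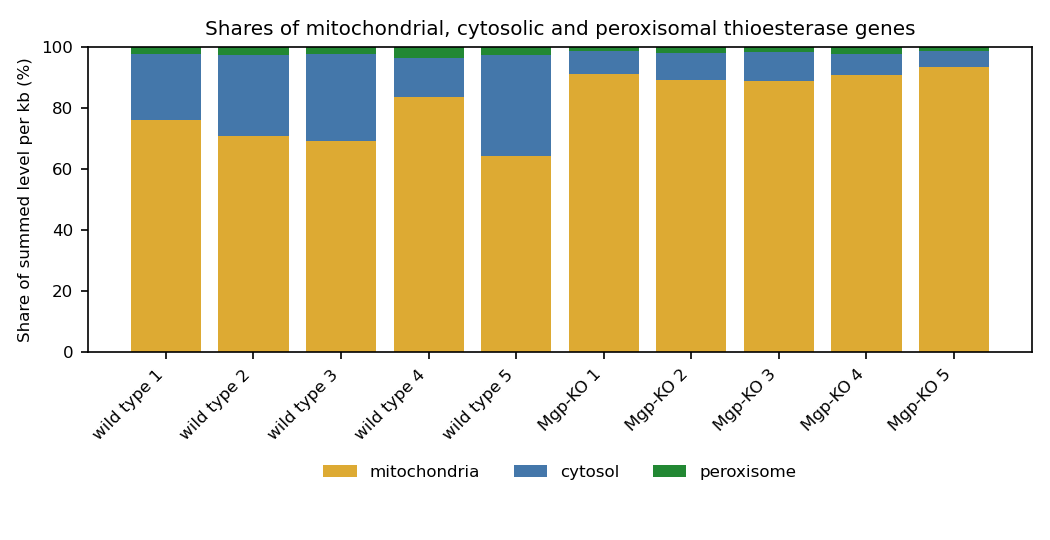
Share (%) of the mitochondrial, cytosolic and peroxisomal genes in the summed level per kb of the 10 thioesterases, with 1 bar per library adding up to 100%. The cytosolic share is 13.04 to 33.1% in the wild-type libraries and 5.34 to 9.25% in those labelled *Mgp*-KO.

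The neighbours *Acot1* and *Acot2*, nearly identical in coding sequence, had log2 fold changes of opposite sign. Neither difference passed the test (limma adjusted p = 0.464 for *Acot1* and 0.516 for *Acot2*). The count of *Acot2* was 3.69 to 14.3 times that of *Acot1* in the wild-type libraries and 6.99 to 43.4 times in those labelled *Mgp*-KO, the lowest of these in *Mgp*-KO 2. Reads from the shared stretches cannot be assigned, so that these counts rest on the parts of each gene that differ.

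By pattern, the genes most like *Acot11* over the 10 libraries, each centred on its own mean, included *Adap1*, with a mean absolute log2 difference of 0.185, and *Pgd*, an enzyme of the pentose phosphate pathway (0.306). Their log2 fold changes were -2.16 and -1.63.

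Of 7 further thioesterases listed, 2, *Acot6* and *Them6*, were high enough to test. Neither of these passed in limma, edgeR or DESeq2, and neither had an unadjusted p under 0.05 in limma or edgeR. *Acot6* was at 65.9 ± 17.0 and 67.5 ± 22.4 normalized counts, and *Them6* at 65.0 ± 29.3 and 72.1 ± 28.7 (SD, n = 5 each). *Acot5*, *Acot10* and *Them5* stayed at or below 5.19 normalized counts in all libraries and *Acot12* at or below 13.8. *Baat*, the bile acid conjugase related to the type I enzymes, was at 0.715, 0, 1.47, 0 and 0 in wild type 1 to 5, and in *Mgp*-KO 1 to 5 at 3.77, 10.7, 1.64, 9.71 and 4.69. These are 0 to 2 and 2 to 14 reads per library, ranges that meet at 2, and the normalized counts of wild type 3 and *Mgp*-KO 3 differ only through the size factors. The gene is below the minimum for limma, and DESeq2 with the set term called *Baat*.

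The acyl-CoA synthetases, which make the substrates of the thioesterases, were compared next. All 10 tested had a negative log2 fold change, with a median of -0.58. None passed over all libraries in limma or edgeR, where 5 had an unadjusted p under 0.05 (10.4% of all genes in limma, 11.4% in edgeR), and 4 passed in DESeq2 (1.42% of all genes). With the set term in limma, *Acsl3*, *Acsl5* and *Acsf3* were lower, beside 2.36% of all genes past the threshold. *Acsl5* was at 6788 ± 3182 and 1554 ± 473 normalized counts (SD, n = 5 each), and differed by -2.05 ± 0.33 (limma adjusted p = 0.0504, with the set term 0.00585). *Acsl3* differed by -1.47 ± 0.35 (limma adjusted p = 0.126, with the set term 0.0160). The most abundant one, *Acsl1*, was at 32103 ± 4689 and 16937 ± 4684, and differed by -0.96 ± 0.25 (limma adjusted p = 0.172, with the set term 0.0552).

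Among the acyl-CoA binding proteins, which carry the substrates, 5 were tested with a median log2 fold change of -0.38. None passed over all libraries in limma, edgeR or DESeq2, with 2 at an unadjusted p under 0.05 in each (10.4% of all genes in limma and 11.4% in edgeR). *Dbi* passed with the set term in limma, beside 2.36% of all genes. *Dbi*, the main acyl-CoA binding protein, was at 22685 ± 10458 and 9914 ± 5452 normalized counts (SD, n = 5 each), and differed by -1.26 ± 0.43 (limma adjusted p = 0.303, with the set term 0.0141). *Acbd4* differed by -0.55 ± 0.18 (limma adjusted p = 0.297, with the set term 0.0926).

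Of the 11 genes for making, carrying or breaking down CoA, the other product of the reaction, none passed in limma with or without the set term (4 at an unadjusted p under 0.05 without it and 5 with it, beside 10.4 and 19.3% of all genes). edgeR called none in either model, and DESeq2 called 1 without the set term, *Pank3*, and 3 with it, beside 1.42 and 4.18% of all genes. Their median log2 fold change was -0.40. *Pank1*, a pantothenate kinase, which starts CoA synthesis, was higher within replicates 1 to 3, by 0.78 on the log2 scale (limma adjusted p = 0.0198), and at -0.11 within replicates 4 and 5. *Pank3*, another such kinase, differed by -0.89 ± 0.27 over all libraries (limma adjusted p = 0.236), the mitochondrial CoA carrier *Slc25a42* by -0.72 ± 0.41 (limma adjusted p = 0.586) and the peroxisomal CoA diphosphatase *Nudt7* by -0.73 ± 0.25 (limma adjusted p = 0.301).

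Of genes in and around peroxisomal beta-oxidation, the pathway that *Acot3*, *Acot4* and *Acot8* serve, 18 were tested. Of these, 16 had a negative log2 fold change (median -0.45). None passed over all libraries in limma or edgeR, with 4 at an unadjusted p under 0.05 in each (10.4 and 11.4% of all genes), and 2 passed in DESeq2 (1.42% of all genes). With the set term in limma, *Ehhadh* and *Abcd3* were lower, beside 2.36% of all genes past the threshold. *Ehhadh*, the peroxisomal bifunctional enzyme, was at 2127 ± 301 and 648 ± 249 normalized counts (SD, n = 5 each), and differed by -1.82 ± 0.30 (limma adjusted p = 0.0504, with the set term 0.0141). *Abcd3*, a transporter of acyl-CoA into peroxisomes, differed by -0.93 ± 0.24 (limma adjusted p = 0.164, with the set term 0.0369). The abundant *Crat* and *Phyh*, listed here but not enzymes of beta-oxidation itself, differed by -0.59 ± 0.32 (limma adjusted p = 0.556) and by 0.00 ± 0.34 (limma adjusted p = 0.999).

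*Acot1* and other type I genes are known targets of PPAR-alpha. Of 16 tested genes on a list of its targets, 13 had a negative log2 fold change (median -0.51), and none passed over all libraries in limma or edgeR, with 5 at an unadjusted p under 0.05 in each (10.4 and 11.4% of all genes). DESeq2 called *Ehhadh*, which is on this list as well (1.42% of all genes), as did limma with the set term (2.36%). The median was closer to 0 within replicates 1 to 3 (-0.09) than within replicates 4 and 5 (-0.995). This was not particular to the list. The medians of the 2 sets were -0.43 and -1.09 for the synthetases, -0.11 and -0.92 for the peroxisomal genes and -0.05 and -0.62 for the adipocyte markers. Skeletal muscle genes went the other way, at 0.28 and 0.10. The cause was not tested. The abundant *Acadl* differed by -0.23 ± 0.26 (limma adjusted p = 0.811), *Acadvl* by -0.36 ± 0.30 (limma adjusted p = 0.723) and *Cpt2* by -0.81 ± 0.24 (limma adjusted p = 0.236, with the set term 0.0526).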

How the data were processed

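RNA of brown adipose tissue from 10 male mice of 4 weeks (5 wild type, 5 labelled *Mgp*-KO, separate mice according to the study) was sequenced by the authors as single reads of 50 bases. Groups and replicate numbers came from the sample labels. The submitters' processing notes name the mm10 build, STAR and DESeq2: the authors mapped reads to mm10, counted them on genes with STAR and divided them by DESeq2 size factors. The deposited values are thus a signal per gene, in normalized counts, listed by symbol. The annotation release and strand setting are not given in the sources used here. All values (100%) were whole multiples of 1 read within 0.00181 reads, and reads were recovered from them (9253793 to 22252260 per library). A count of 0 allows 3 reads, or 2.15 to 5.19 normalized counts.

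Differential expression was tested with limma 3.58.1 (R 4.3.3, lmFit and eBayes with trend) on log2(normalized count + 1), without a block, in 13714 genes with a mean of at least 10, with Benjamini-Hochberg adjustment over all of them. The study tested counts with DESeq2. The deposited values are normalized counts, and limma was chosen as the main test here, with DESeq2 on the recovered reads as an alternative. edgeR 4.0.16 and DESeq2 1.42.0 on the recovered reads, other pseudocounts, filters and scalings, a replicate block, a set term and left-out libraries were alternatives. Leaving out *Mgp*-KO 2 and 5 or 4 and 5 together, and leaving libraries out of the compartment shares, were chosen after the data were seen. The members and gene lists were chosen with earlier results of these data known. Named genes were the members, the further thioesterases, *Mgp*, per list the 2 most abundant and the 2 with the smallest p, and the 3 patterns nearest to a member past the threshold. 1 of these 3 is not reported here. Genes a count refers to, marker genes, overlapping genes and *Xist* were named after their values were seen. On simulated data, the test recovered 85.5% of 200 genes given a log2 change of 2 when sets were alike and 69% when they differed, among 13714 genes, and 85.5% with the set term. Lengths and coordinates came from the GENCODE annotation of GRCm38 (mm10), start regions from RefSeq (GRCm38.p6). Protein sequences were not used here.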

Additional observations from a re-analysis of the deposited data

Results flagged for a closer look

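In 4 of the 20 groups of 5 libraries, 1 library stood far from the rest of its group, by a gap of over 0.71 of the group's range (Dixon's test); chance does this in about 1 in 20 groups. *Acot1* was at 157 normalized counts in *Mgp*-KO 2, a gap of 0.862 of the range. *Acot2* was at 1638 in *Mgp*-KO 4 (0.761), *Acot9* at 687 in *Mgp*-KO 5 (0.718) and *Acot13* at 2619 in wild type 4 (0.749). The 4 values came from 4 different libraries.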

How the results depend on the processing

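*Acot11* kept its direction under all 28 alternatives and stayed past the threshold under 15, with limma, edgeR or DESeq2 adjusted p-values from 2.333e-09 (DESeq2, set term) to 0.675 (replicates 4 and 5). No member was called without the filter on low values (0; adjusted p of *Acot11* 0.0695), without the mean-variance trend (0; 0.0643), with edgeR TMM (0; 0.0530), within replicates 4 and 5 (0) or without *Mgp*-KO 2 and 5 (0). DESeq2 with the set term called 2, and leaving out 1 library gave 0 to 1. *Them4* reversed within replicates 4 and 5, to 0.19, and the cause was not tested. The other tested members kept their direction under every alternative run.

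Over all genes, the 9 calls became 29 with a pseudocount of 10, 1 without the filter, 15 with a mean of at least 50, 34 after quantile normalization, 3 with edgeR and 386 with DESeq2. The set term gave 324 in limma, 341 in edgeR and 1135 in DESeq2, replicates 1 to 3 gave 505, and replicates 4 and 5 gave 0. Leaving out *Mgp*-KO 2 and 5 gave 0 and *Mgp*-KO 4 and 5 gave 267, and leaving out 1 library gave 0 to 93.

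The study describes its mice as 5 pairs of *Mgp*-KO and wild-type males, but does not say how they were paired. The replicate numbers were not shown to pair the mice. Same-numbered libraries had a mean correlation of deviations of 0.39 (lowest 0.0559), and other numbers of the same set 0.416. Replicates 1 to 3 did not correlate best with their own number, whereas replicates 4 (0.523) and 5 (0.514) did. With the replicate block, limma called 270 genes and edgeR 222, and *Acot11* was the 1 member called (limma adjusted p = 0.0179).

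With *Acot13* counted as cytosolic, the cytosolic share was 82.7% (wild type) and 80.2% (*Mgp*-KO label), and the mitochondrial share 14.7 and 18.1%. With the longest transcript as length, the peroxisomal share was 3.45 and 2.29%, the wild-type levels per kb were 222 for *Acot7*, 129 for *Acot8*, 332 for *Acot9* and 82.7 for *Them4*, and *Acot1* passed *Acot4* in the order. Depth limits *Acot3* and *Baat*, which had at most 14 reads in a library.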
